A study of Schizosaccharomyces japonicus with 2 samples.

Results

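The last 48.7 kb of supercontig 4 of Schizosaccharomyces japonicus, from just after base 120000 to the last mapped base at 168703, is a stretch whose small RNA nearly all aligns in more than 1 place. Its members were the distinct combinations of start, end and strand of the listed sequences with a span of 21 to 28 nt and a start in this region. There were 4138 members in replicate 1 and 9954 in replicate 2, of 223429 and 474395 positions over the whole genome. Both libraries together had 12513 members of 594345 positions. The region was chosen on where reads had been listed in these same libraries, so its amount and density are a description and not a finding. The border is a round number and not a gap in the reads: the 1 kb before it held 62 reads at 35 positions in replicate 1 and 597 reads at 203 positions in replicate 2, the last of them ending at bases 119888 and 119958. The first kb inside held 2476 and 1940 reads, from bases 120399 and 120393 on.

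The study sequenced small RNA of the wild type, strain yFS275, from log-phase cultures, in 1 group of 2 libraries called replicate 1 and replicate 2. No treatment or mutant was compared, and the labels do not say whether the libraries came from separate cultures, so differences between them may be technical. They held 3080905 and 3485818 reads of 21 to 28 nt. A dense block of minus-strand reads at bases 1 to 37000 of supercontig 3 took 71.1% of replicate 1 and 29.5% of replicate 2, which lowers every other share in replicate 1. Amounts are given in RPM, which are reads per 1000000 reads of the library, and where it matters also per 1000000 reads outside that block.

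In fission yeasts, Dicer cuts double-stranded RNA into short duplexes, and 1 strand of each is kept by an Argonaute protein that guides silencing of matching RNA and chromatin. Fission yeast small RNA of this kind is known from the repeats of heterochromatin at centromeres and near chromosome ends. In S. japonicus, retrotransposons lie in those places, and they are a known source of its small RNA. A repeat poses a practical difficulty, because a short read from it matches every copy. No base sequence or annotation of the deposited supercontigs was used here, so what the region encodes was not analysed.

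The region held 56544 reads in replicate 1, or 1.84% of the library (95% Clopper-Pearson interval 1.82% to 1.85%), and 72193 reads in replicate 2, or 2.07% (2.06% to 2.09%). The mean was 1.95% ± 0.167 (SD, n = 2). These intervals cover counting error only. With 0.415% of the mapped length, it had 4.48 and 5.07 times the reads per kb of the remaining genome, and 16.2 and 7.23 times those of the remaining genome outside the block. The first 120 kb of the same supercontig had 376 reads per kb in replicate 1, against 1161 in the terminal region. In replicate 2 the order was the other way, with 1482 reads per kb in the terminal region and 2085 in the first 120 kb.

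Sequences with a score of 0, read here as aligning equally well in several places, carried 99.5% of the region's reads in replicate 1 and 97.1% in replicate 2. Outside the region and the block these shares were 71.1% and 69.3%. The block itself had 96.4% and 96.2%, so a share this high was not particular to the region. The first 120 kb of supercontig 4 had 82.4% and 75.5%. Each such sequence is listed at 1 of its places, so a read listed here may derive from a copy elsewhere. Of the members, 58.2% and 59.9% had a single read. The libraries shared 1579 members, which was 38.2% of those of replicate 1 and 15.9% of those of replicate 2, and these carried 53.4% and 61.1% of the reads. Over the whole genome the libraries had 223429 and 474395 positions, and 594345 together. Most positions there too were thus found in 1 library only, so little sharing was not particular to the region.

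The reads were gathered in few windows of 1 kb, arranged in 3 parts. The left part, up to base 128000, held 14166 and 17146 reads. The longest run without reads was 4645 nt in replicate 1, from base 128029, and 4547 nt in replicate 2, from base 128070. The 4 windows from 128001 to 132000 held 1 read in each library. The middle part, bases 132001 to 149000, held 5714 and 19242 reads, and the right part, bases 149001 to 168703, held 36663 and 35804. These borders were drawn after the values were seen. It took 4 windows of replicate 1 and 7 of replicate 2 to reach 50% of the reads, and 16 and 26 windows to reach 90%, of 46 with any read in each library. At least 100 RPM in each library was reached by 20 of the 49 windows, 4 in the left, 2 in the middle and 14 in the right part. Over the genome 3.96% of the windows with reads did so, but the region was chosen for its reads, and nothing is read from that difference.

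**Figure D1:**
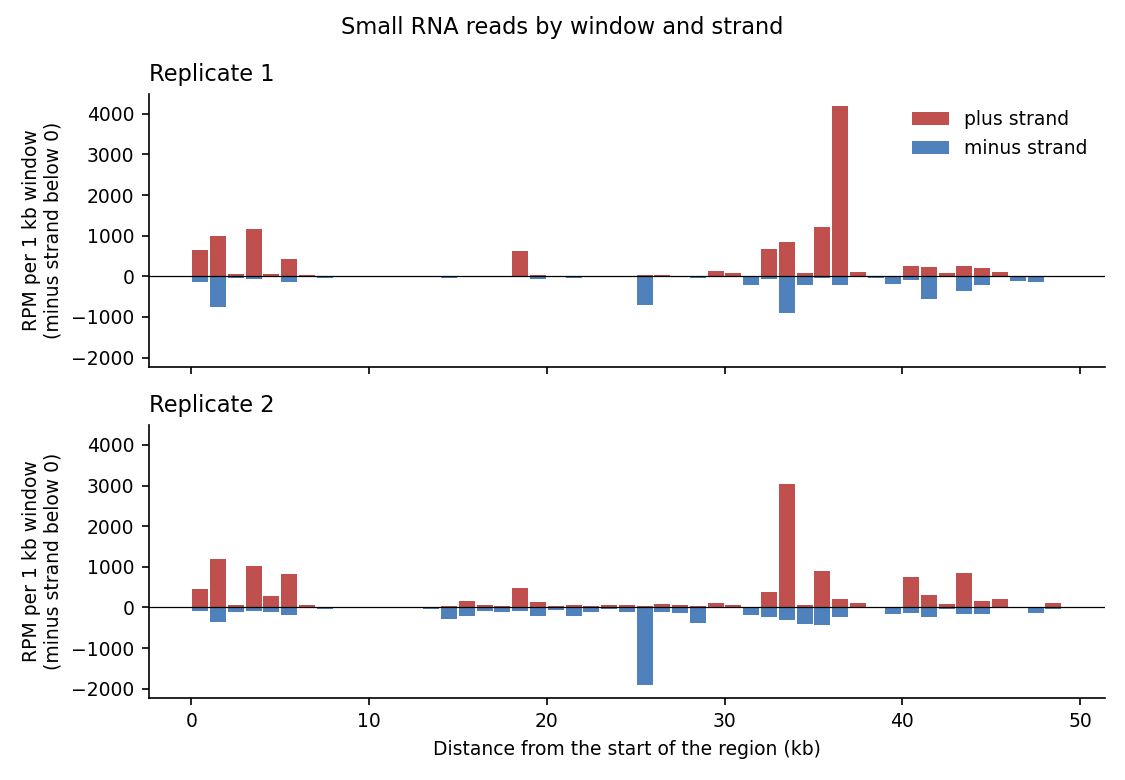
RPM in each window of 1 kb of the region, with plus-strand reads above 0 and minus-strand reads below, for replicate 1 (top) and replicate 2 (bottom), against the distance from the start of the region in kb. The left and right parts carry the tall bars in both libraries, the tallest bar of replicate 1 (36 to 37 kb) is low in replicate 2, and the tall minus-strand bar at 25 to 26 kb is taller in replicate 2.

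The 12 windows named here had the highest mean RPM of both libraries. Bases 153001 to 154000 had 1762 RPM in replicate 1 and 3330 RPM in replicate 2, with 48.1% and 91.1% of the reads on the plus strand. Bases 156001 to 157000 had 4413 and 434 RPM, with 95.0% and 48.4% on the plus strand. These windows of the right part thus led different libraries. Bases 145001 to 146000, in the middle part, had 736 and 1964 RPM, with 4.37% and 2.32% on the plus strand. It was the only 1 of the 12 outside the left and right parts.

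In the left part, bases 121001 to 122000 had 1758 and 1564 RPM and bases 123001 to 124000 had 1225 and 1103 RPM. The window up to base 121000 had 804 and 557 RPM, and bases 125001 to 126000 had 571 and 1010 RPM. All of these were mainly on the plus strand in both libraries, at 56.9% to 94.9% of their reads. Their ratios of replicate 1 to replicate 2 ran from 0.565 to 1.44, where bases 153001 to 154000 had 0.529 and bases 156001 to 157000 had 10.2.

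The other windows among the 12 lay in the right part. Bases 155001 to 156000 had 1259 and 1332 RPM, bases 152001 to 153000 had 741 and 614 RPM, and bases 161001 to 162000 had 795 and 532 RPM. Bases 163001 to 164000 had 622 and 1009 RPM, and bases 160001 to 161000 had 357 and 891 RPM. The main strand of bases 161001 to 162000 differed between the libraries, with 28.9% and 57.5% of reads on the plus strand, and so did that of bases 163001 to 164000, with 42.7% and 85.1%.

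Single members held much of the tallest windows, with 73.9% of the reads of bases 153001 to 154000 in replicate 2 and 47.0% of those of bases 156001 to 157000 in replicate 1. The member at bases 153436 to 153459 on the plus strand, of 24 nt, had 25 reads in replicate 1 and 8581 in replicate 2, where it was 11.9% of the region. A single sequence gave 8351 of these 8581 reads. The member at bases 156686 to 156706, of 21 nt, had 6397 reads in replicate 1 and 0 in replicate 2, and the member that starts at the same base and is 1 nt longer had 5524 and 0. Each library's leading member was thus nearly or wholly missing from that place in the other library.

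The next members also differed between the libraries. The minus-strand member at bases 145829 to 145853, of 25 nt, had 8 reads in replicate 1 and 5041 in replicate 2, and the plus-strand member at bases 121407 to 121430, of 24 nt, had 2154 and 149. The 10 members with the most reads in replicate 1 held 37.8% of its reads in the region and 1.40% of those of replicate 2, and 5 of them had no read there. The 10 leading members of replicate 2 held 4.07% of the region's reads in replicate 1 and 32.9% in replicate 2, and 1 of them had no read in replicate 1. Each set of 10 was picked on the counts of its own library. A lower share in the other library is thus partly built in, and nothing is read from these shares.

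The most used ends followed these members. The 5′ end at base 156686 of the plus strand had 11961 reads in replicate 1, 21.2% of the region, and 0 in replicate 2. The 5′ end at base 153436 had 77 reads, or 0.136%, and 8856 reads, or 12.3%. The minus-strand 5′ end at base 145853 had 8 and 5041 reads, the plus-strand 5′ end at base 121407 had 2163 and 228, and that at base 153437 had 1564 and 803. Of these 5 ends, the last was the closest between the libraries, with 2.77% and 1.11% of the reads.

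Among 3′ ends, base 153459 of the plus strand had 86 reads in replicate 1 and 8637 in replicate 2. Bases 156706 and 156707 had 6424 and 6255 reads in replicate 1 and none in replicate 2. The minus-strand 3′ end at base 145829 had 308 and 5060 reads. The plus-strand 3′ end at base 121430 was used in both libraries, with 2436 reads or 4.31% and 1977 reads or 2.74%, and was shared by members of 5 spans in each. The 5′ ends next to it shifted by 1 nt between the libraries, with the leading 5′ end at base 121407 in replicate 1 and at base 121408, with 52 and 2114 reads, in replicate 2.

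Strands were unequal in different ways along the region. In replicate 1 the plus strand held 68.9% of all reads and in replicate 2 it held 61.2%, with a mean of 65.1% ± 5.50 (SD, n = 2), while outside the region and the block it held 46.7% and 41.2%. It held 73.3% and 79.5% in the left part and 71.2% and 71.6% in the right part. In the middle part it held 43.3% and 25.3%. With each member counted once, whatever its reads, the region's plus-strand share was 52.3% and 47.8%, which is closer to equal than by reads.

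There were 42 windows that had 50 reads or more in both libraries, and 35 of these had the same main strand in both, 16 plus and 19 minus. The minor strand held at least 10% in each library in 21 of the 42, where 56.0% of 932 such windows over the genome did. The middle part held 10 of these 21 windows among its 14, the left part 5 among 8 and the right part 6 among 20. No window had under 1% of its reads on the minor strand in both libraries. That count and the count of windows with the same main strand were not made over the genome, so they are a description only. Where several copies share their reads, the strand balance of a window also depends on which sequences were listed there.

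Spans varied with the part and with the library. In replicate 1, 21 nt was the most frequent span of the region, with 35.1% of the reads, and 23 nt held 15.3%. In replicate 2, 24 nt was most frequent, with 24.0%, and 23 nt held 23.7%. The means were 25.8% ± 13.2 for 21 nt and 19.5% ± 5.95 for 23 nt (SD, n = 2). Shorter reads are outside the sizes counted here.

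The maxima also differed by part. The most frequent span was 24 nt in the left part of replicate 1, with 33.8%, and 23 nt in replicate 2, with 30.7%. In the middle part it was 21 nt, with 33.2%, and 25 nt, with 32.1%, and in the right part 21 nt, with 41.0%, and 24 nt, with 34.2%. No part had the same most frequent span in both libraries. Counting each member once put 23 nt at 27.4% and 30.9% of the members, ahead of 21 nt at 18.1% and 13.8%. Without the 5 leading members the 23-nt share of reads was 20.4% and 29.3% and the 21-nt share 31.8% and 20.3%. Outside the region and the block 23 nt led in both libraries, with 26.5% and 34.6% of reads. In the block 21 nt led in both, with 23.7% and 25.6%.

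**Figure D2:**
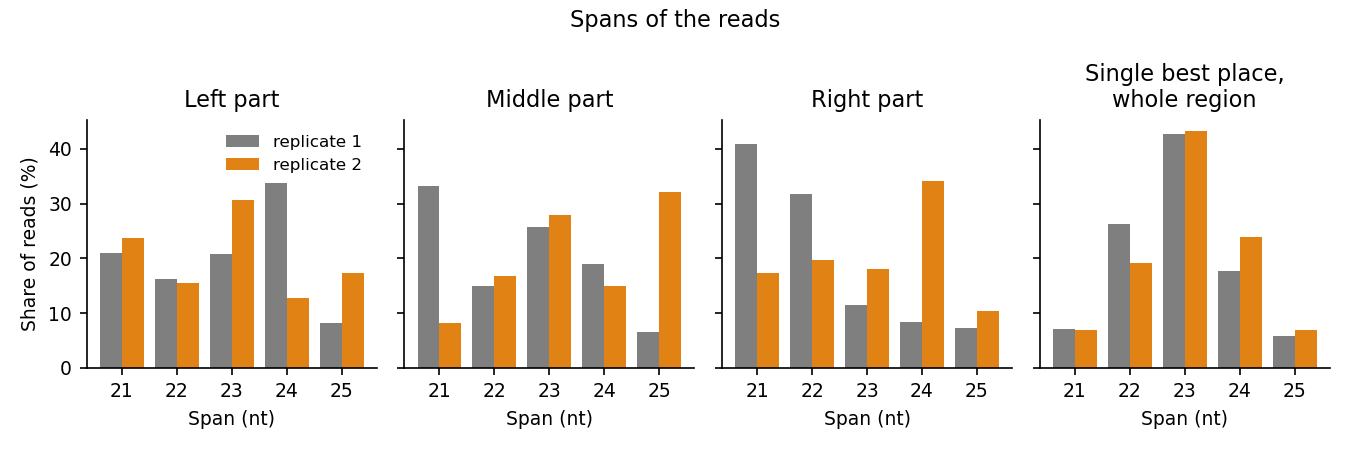
Share of reads in percent by span in nt, for replicate 1 and replicate 2, in the left, middle and right parts and, at the far right, in the reads of the whole region with a single best place. The maxima of the 3 parts lie at different spans in the 2 libraries, whereas the reads with a single best place have 42.7% and 43.2% at 23 nt.

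The read profile of the region repeated itself. The 5′ ends of distinct members were counted per base and strand, put on a log2 scale with 1 added and smoothed over 20 nt. Among distances from 1000 to 24000 nt, this profile matched itself best at 7813 nt in replicate 1 (r = 0.24) and at 7812 nt in replicate 2 (r = 0.14). More than 500 nt from there the best r was 0.12 and 0.13, so over the whole region the period stood out in replicate 1 and hardly in replicate 2. These correlations are across bases of 1 library, which are not independent, and both libraries share the aligner and the supercontigs.

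Single windows were compared separately. A match is picked for its high r among many places, so its r cannot be set against that of the whole profile. Each of the 32 windows of 1 kb with at least 50 members in each library was compared with every other place of the region in both orientations, where a place had at least 500 nt of its 1 kb inside. A match needed a mean r of at least 0.7 over the libraries and 0.6 in each. Each r was taken over both strands together, so a shared excess of 1 strand also raises it. Matches inside the region were found for 24 of the 32 windows: 5 of 6 searched in the left part, 4 of 11 in the middle part and 15 of 15 in the right part. The 8 windows without a match reached at most r = 0.58. Of 73 matches, 61 ran in the same orientation and 12 in the reverse one. The best placement of the libraries, sought within 50 nt of each match, differed by at most 6 nt between them, and by at most 2 nt in 63 matches. A match needed r of at least 0.6 in each library at the same placement. That favours small differences, so nothing is read from them.

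The left part recurred in the right part in 2 places, called the nearer and the farther copy here. The window up to base 121000 matched 32005 nt further on (r = 0.95 in replicate 1 and 0.93 in replicate 2) and 39822 nt further on (r = 0.97 and 0.93). Bases 121001 to 122000 matched at 32027 and 39816 nt, bases 122001 to 123000 at 32025 and 39812 nt, and bases 123001 to 124000 at 32008 and 39819 nt. Bases 125001 to 126000 matched at 31651 and 39475 nt (r = 0.96 and 0.91 for each). Both distances were thus shorter by more than 300 nt at bases 125001 to 126000 than at bases 123001 to 124000. Bases 124001 to 125000 were the only searched window of the left part that found no match itself. Places matched from the right part ran into it at the shorter distances. Bases 156001 to 157000 matched bases 124349 to 125348 (r = 0.88 and 0.61), and bases 164001 to 165000 matched bases 124526 to 125525 (r = 0.93 and 0.83). Both places run past base 125000, so where the distances change was not resolved. The nearer and farther copies lay 7787 to 7824 nt apart, which is the distance at which the whole profile matched itself best. A copy here means a repeated read profile, and no base sequence was compared.

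Pieces of the same profile lay in the middle part. Bases 138001 to 139000 matched the left part 15159 nt before them (r = 0.94 and 0.79), and bases 145001 to 146000 matched the nearer copy 8202 nt further on (r = 0.83 and 0.79). These were the 2 windows of the middle part at 100 RPM or more in each library. Bases 134001 to 135000 and 148001 to 149000 matched each other at a distance of 14026 nt (r = 0.74 and 0.81). Bases 159001 to 160000 matched bases 148159 to 149158 less closely (r = 0.81 and 0.64). In the right part, bases 151001 to 152000 matched places 7804 and 15592 nt further on.

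**Figure D3:**
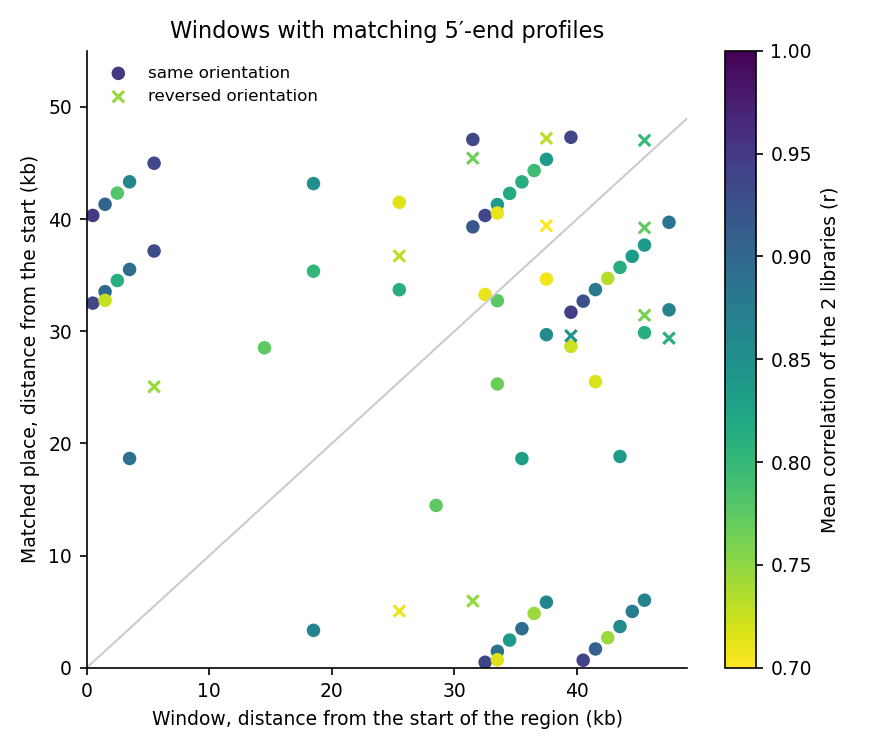
Each point is a window of 1 kb (x, distance from the start of the region in kb) and a place inside the region with a matching 5′-end profile (y, same scale), coloured by the mean r of the 2 libraries; circles have the same orientation and crosses the reverse one, and the grey line marks a window's own place. The rows of points parallel to the grey line show the left part recurring at about 32 kb and 40 kb and the right part recurring at 7.8 kb.

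Matching profiles were also found on other short supercontigs. Of the 32 windows, 22 matched a place outside the region on supercontigs 4 to 30, and 25 matched a place either inside or outside. The first 120 kb of supercontig 4 matched 20 windows, supercontigs 6 and 10 matched 15 each, supercontig 27 matched 4 and supercontig 12 matched 2. Bases 121001 to 122000 matched bases 112885 to 113884 of the same supercontig (r = 0.93) and bases 955 to 1954 of supercontig 6 (r = 0.91). The window up to base 121000 matched bases 8559 to 9558 of supercontig 10 in the reverse orientation (r = 0.88). The block of supercontig 3 matched 3 windows, with a highest r of 0.80. Supercontigs 1 to 3 were not searched beyond that block.

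For the 5 leading members, 43 look-ups were made at matching places inside and outside the region, for members of the same span. The library with more reads was the same as at the listed place in 19 look-ups and the other library in 20, and the counts were equal in 4. Many look-ups fell on the same places. The 2 members that start at base 156686 shared theirs, and the members at bases 153436 and 121407 shared most of theirs. The look-ups are thus not independent, and nothing is read from the tally. Examples of places where the order turned follow, and they are a selection. The 24-nt member at bases 121407 to 121430 had 2154 reads in replicate 1 and 149 in replicate 2. At the matching place of the nearer copy, within 10 nt of base 153434, members of 24 nt had 591 and 8595 reads. Of the 8595 reads, 8581 belong to the member at bases 153436 to 153459, itself among the 5 leading members. This example thus sets 2 members side by side that were both picked for their many reads. At bases 156686 to 156706 replicate 1 had 6397 reads and replicate 2 had none, while at the matching place of the left part, within 10 nt of base 125034, the members of 21 nt had 875 and 2250 reads. Whether these are the same sequences listed at different copies was not tested, since the deposited files hold no bases.

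Outside the region the order turned at some places too. For the 22-nt member at bases 156686 to 156707, with 5524 reads in replicate 1 and 0 in replicate 2, the place within 10 nt of base 106095 of supercontig 4 had 453 and 1733 reads of 22 nt. For the 25-nt member at bases 145829 to 145853, with 8 and 5041 reads, the place within 10 nt of base 35800 of supercontig 6 had 680 and 56 reads of 25 nt. At other places it did not turn: for the 24-nt member at bases 153436 to 153459, the place within 10 nt of base 161226 had 79 and 181 reads, and that of base 160475 had 23 in each library.

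The left part and its 2 copies were also summed at 5 matching places. The ratio of replicate 1 to replicate 2 in RPM ran from 0.408 to 10.9 over the 15 single windows of the copies. A summed ratio always lies between those of its parts. It was 0.930 for the window up to base 121000, 0.799 at bases 121001 to 122000, 0.626 at bases 122001 to 123000 and 0.899 at bases 123001 to 124000. At the place of bases 125001 to 126000 it was 3.03, and the 5′ end at base 156686 gave 11961 of the 13800 reads of replicate 1 in the nearer copy there. Over all 5 places the copies held 47215 reads in replicate 1 and 47074 in replicate 2. The left part, nearer copy and farther copy took 29.0%, 55.8% and 15.1% of these in replicate 1, and 32.7%, 45.5% and 21.9% in replicate 2.

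How the libraries compared depended on the scaling. The ratio of replicate 1 to replicate 2 was 0.886 for the region in RPM of the library and 2.16 in RPM outside the block. It was 0.935 and 2.28 in the left part, 0.336 and 0.821 in the middle part, and 1.16 and 2.83 in the right part. Outside the region and the block it was 0.395 and 0.965. The middle part stood lower in replicate 1 relative to replicate 2 than the left and right parts did. The change of scale multiplies every ratio by the same factor, so it cannot alter this order. With 1 library behind each value, the spread of these ratios across cultures was not measured.

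Both scalings were also applied to the 42 windows with 50 reads or more in each library. In RPM of the library, replicate 1 had at most 0.5 times the level of replicate 2 in 17 of them and at least 2 times in 3, where 59.2% and 4.94% of 932 windows over the genome did. In RPM outside the block these counts were 11 and 18, where 50.5% and 34.1% of the windows over the genome did, so the balance of lower and higher windows turned with the scaling. By part, the middle part held 13 of the 17 lower windows in RPM of the library and 9 of the 11 outside the block, among its 14. The right part held all 3 higher windows on the first scale and 13 of the 18 on the other, with 4 in the left and 1 in the middle part.

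The median ratio over windows was 0.809 in the left part (0.169 to 1.44), 0.158 in the middle part (0.108 to 1.11) and 1.02 in the right part (0.185 to 10.2) in RPM of the library. Outside the block the medians were 1.98, 0.387 and 2.49. The middle part had the lowest median, in an order that the change of scale cannot alter.

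Windows with and without a match inside the region were then set side by side, in RPM of the library. The ratios of those without a match ran from 0.108 to 0.275, with a median of 0.162. In the 20 matched windows of the left and right parts the ratios ran from 0.401 to 10.2, with a median of 0.998. The 4 matched windows of the middle part had ratios of 0.166, 1.11, 0.375 and 0.113, so 2 of them lay in the range of the unmatched windows, and 7 of the 8 unmatched windows lay in the middle part themselves. Position and match cannot be told apart here. Unmatched means only that the window itself found no match. Places matched by other windows ran into some unmatched windows, such as bases 124001 to 125000. The 23-nt share had a median of 40.5% in replicate 1 and 44.5% in replicate 2 over the unmatched windows, and of 16.0% and 18.8% over those 20 matched ones. The leading member held a median of 7.33% and 7.10% of the reads in unmatched windows, and of 31.5% and 23.1% in those matched ones. Windows share their sequences and libraries and are not replicates, and they were grouped after their values were seen.

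**Figure D4:**
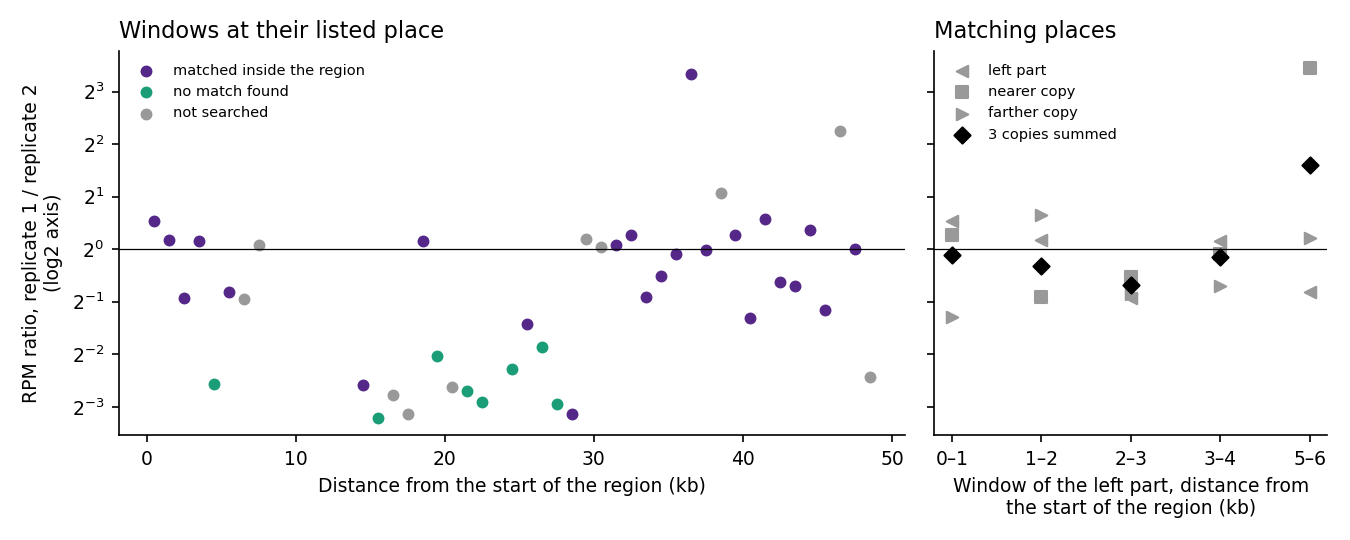
Left, the ratio of RPM in replicate 1 to that in replicate 2 (log2 axis) for each window of 1 kb that had 50 reads or more in both libraries, against the distance from the start of the region in kb, coloured by whether a matching profile was found inside the region. Right, the same ratio at 5 matching places of the left part, nearer copy and farther copy and for the 3 copies summed; 4 of the 5 sums lie between 0.626 and 0.930 and the other is 3.03.

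Reads with a single best place were few and lay mainly in the middle part. They numbered 293 in replicate 1 and 2086 in replicate 2. The middle part had 254 and 1930 of them, the left part 3 and 20, and the right part 36 and 136. The windows at bases 141001 to 143000, singled out after their values were seen, held 183 and 1413 of them, or 62.5% and 67.7%. In these 2 windows the share of reads with a score of 0 was at most 0.807%, whereas every other window of the region with reads had at least 63.2%. These bases were thus the only 2 kb of the region where nearly every read had 1 best place.

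Reads of bases 141001 to 143000 with a single best place lay on the minus strand for the most part, with 13.7% (95% Clopper-Pearson interval 9.04% to 19.5%) on the plus strand in replicate 1 and 21.9% (19.8% to 24.2%) in replicate 2. The most frequent span was 23 nt, with 41.0% and 43.0%, followed by 22 nt with 27.9% in replicate 1 and 24 nt with 23.9% in replicate 2. At 21 nt there were 8.20% and 6.37%. No sequence dominated, with at most 4 and 19 reads for any single one, or 2.19% and 1.34%. The ratio of replicate 1 to replicate 2 was 0.147 in RPM of the library and 0.358 in RPM outside the block.

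A further stretch with reads of a single best place was bases 139001 to 141000, with 16 and 128 such reads in its first 1 kb and 16 and 131 in its second. In the right part such reads gathered in bases 163001 to 164000, with 19 and 74, of which 10.5% and 5.41% were on the plus strand. Over all reads of that window the plus strand held 42.7% and 85.1%. Across the region, reads with a single best place had 42.7% and 43.2% at 23 nt and 32.4% and 32.1% on the plus strand, and the libraries were closer in these shares than in those of all reads.

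Pairs of members on opposite strands were counted for the geometry that Dicer leaves, with 2-nt 3′ overhangs at both ends of a duplex. In the region, replicate 1 had 10 pairs of this kind, and the mean of the other start differences within 10 nt was 9.25 ± 2.10 (SD over 20 differences), a ratio of 1.08. In replicate 2 there were 149 such pairs and a mean of 121 ± 14.5 at the other differences, which gives 1.23. The mean ratio was 1.16 ± 0.106 (SD, n = 2). Outside the region and the block the ratios were 1.62, from 2619 pairs, and 1.39, from 21417 pairs. The count in replicate 1 lay within the spread of its neighbours and ranked 7 among 21 differences, so no excess was detectable at its depth. In replicate 2 it ranked 2.

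By part, the right part had the higher ratios, at 1.79 from 6 pairs in replicate 1 and 1.45 from 56 pairs in replicate 2, where 2-nt 3′ overhangs were the most frequent of the 21 differences. In the left part the ratios were 1.22 from 3 pairs and 1.15 from 25, and in the middle part 0.290 from 1 pair and 1.12 from 68. Pairs among reads with a single best place numbered 0 and 17, against a mean of 0.400 and 17.9, which shows no excess at this depth. A duplex whose strands were listed at different copies is missed by this count. Same-strand members whose 5′ ends lay exactly the upstream member's span apart were 1.11 and 1.10 times as frequent as at distances within 5 nt of it, and 1.22 and 1.15 times outside the region and the block.

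**Figure D5:**
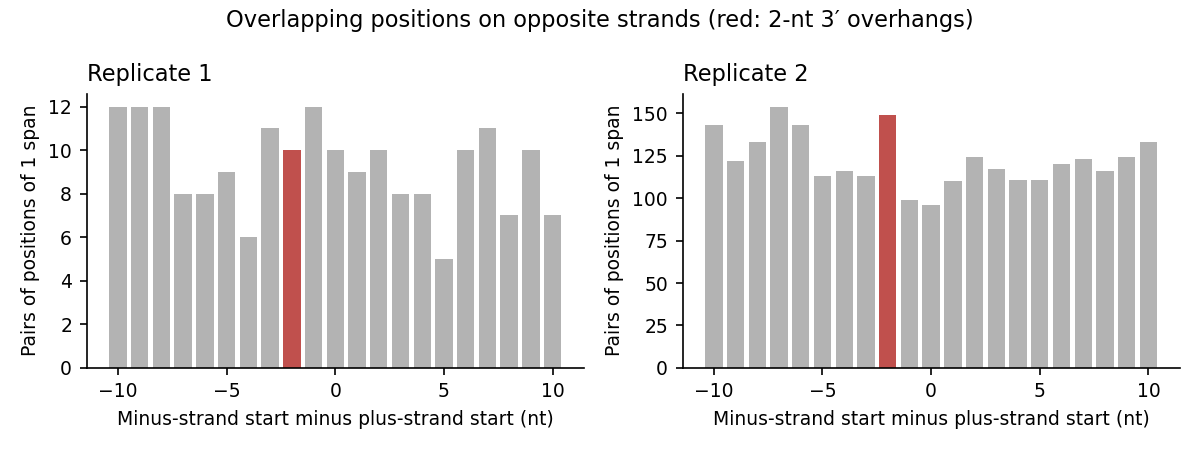
Number of pairs of members of 1 span on opposite strands (y) by the start on the minus strand minus the start on the plus strand in nt (x), for replicate 1 and replicate 2; the red bar marks the duplex with 2-nt 3′ overhangs. In replicate 1 its 10 pairs lie within the other bars, and in replicate 2 its 149 pairs rank 2 among the 21 differences.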

How the data were processed

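Small RNA of 1 group of 2 libraries was analysed. A gel cut of 10 to 40 nt was taken from 40 µg of total RNA per the labels' protocols, with adapter ligation that needs a 5′ monophosphate and a 3′ hydroxyl. BWA is named in the submitters' processing notes, and neither its settings nor the build is given in the sources used here. The deposited files list distinct sequences, each with 1 place, a name that ends in a whole number, read as its number of identical reads, and a mapping score from 0 to 37 made by the authors. No normalization is recorded, so the numbers were used as raw reads.

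Positions count from 1 on the deposited supercontigs. Windows of 1 kb were filled by the leftmost base. RPM divides by all reads of 21 to 28 nt. Profile matching, pair counts and same-strand distances were checked on simulated data. The members and the measures were chosen with earlier results of these data known. The windows named were the 12 with the highest mean RPM, the ends and members named the 5 with the highest mean share. No test was run, since there was 1 group. The gene table at hand (another assembly) was not used. Python 3.11.15, numpy 2.4.6, pandas 2.3.3, scipy 1.17.1 and matplotlib 3.10.9 were used.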

Additional observations from a re-analysis of the deposited data

Results flagged for a closer look

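Reads of 19 to 20 nt, which the account above leaves out, numbered 12 in replicate 1 and 12 in replicate 2 in this region. They are above the 3 reads that a count of 0 allows, and no control library was at hand. The whole libraries held 5634 and 6695 reads of 19 to 20 nt. The region's share of these was thus far below its 1.84% and 2.07% of the longer reads counted above, and the reason was not tested.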

How the results depend on the processing

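Leaving out 1 library at a time gave a share of 1.84% to 2.07%, a density ratio of 4.48 to 5.07, a plus-strand share of 61.2% to 68.9%, 15.3% to 23.7% at 23 nt, 16.4% to 35.1% at 21 nt, and 21 to 37 windows at 100 RPM instead of 20, with repeat distances of 7812 to 7813 nt. Means over both libraries follow. With only reads of a single best place, the share was 0.181%, the density ratio 0.434, the plus strand 32.2%, the 23-nt share 42.9%, the 21-nt share 7.06% and the library ratio 0.338 with both read totals restricted in the same way. In those reads 2 windows held 50%, 2 reached 100 RPM, the overhang ratio was 0.476, the same-strand ratio 0.940, the leading 5′ and 3′ ends had 3.15% and 1.92%, and the best repeat distance was 1082 nt; such reads have no equal copy by definition, so nothing is read from the last value. With each member counted once, the plus strand held 50.04%, 23 nt 29.1% and score 0 91.4%, 13.5 windows held 50%, 42 reached the limit, and the leading ends had 0.103% each. Scaled outside the block, the share was 4.65%, the density ratio 11.8, the library ratio reversed to 2.16 and 33 windows reached the limit; the windows at least 2 times higher in replicate 1 numbered 18 instead of 3, and those at most 0.5 times 11 instead of 17. Starting 24 kb further on gave a share of 1.30%, a library ratio of 0.968 and an overhang ratio of 1.34. Smoothing over 50 nt gave a repeat of 7808 nt, with 1050 nt in replicate 2. Choices made after seeing the data gave library ratios of 0.935 (left), 0.336 (middle), 1.16 (right, reversed) and 1.13 (copies summed, reversed), and overhang ratios of 0.706 (middle) and 1.62 (right). Except where its construction shows it, the cause was not tested. Apart from leaving out a library, 33 values moved, 3 reversed and 22 stayed close to the main value. Close meant within the SD between the libraries, within 1.5 times the main count for counts of windows, and within counting error for the library ratio. No paired analysis was possible because there was 1 group. Depth limits the overhang pairs: 10 were counted in replicate 1.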
